A study of Xenopus laevis with 8 samples.

Results

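Forkhead (Fox) transcription factors were examined in *Xenopus laevis* animal caps, the ectoderm cut from the top of the blastula, in which the neuronal transcription factor EBF3 could be switched on by a hormone. The members were a probe for *xfd-13* and every probe on the array whose gene name begins with xfd, fox or fkh, or whose description contains forkhead, fork head or winged helix. This gave 23 of 21495 probes. One of them, LOC398657, encodes a forkhead-associated domain protein (*aptx* in RefSeq), which is not a Fox gene, and 22 Fox probes in 12 Fox classes remained. The probe for *xfd-13* had been selected on its high log2 ratio on the arrays with active EBF3, so its values there are given as a description without a test, and the other 21 entered by name. Of the 22 Fox probes, 21 were matched to a RefSeq gene of the *Xenopus laevis* v10.1 assembly, while the EST probe BG020041 was not. Its class rests on its description and on a UniGene cluster that the paper's supplement gives to both it and XFD2. It may thus stand for the same gene as XFD2, which was not tested. Several pairs share a gene in RefSeq. The probes XFD2 and XFD2' both match *foxi4.2*, and *foxJ1* and *foxJ1'* both match *foxj1*. Probe sequences were not used here, so binding of the L and S gene copies to one probe was not tested.

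All embryos had received 0.2 ng of mRNA for Noggin, a BMP antagonist that turns caps towards a neural fate. Caps were dissected at stage 9. On the 4 active EBF3 arrays, Cy3 held RNA of caps with 1 ng of hGR-XEBF3 mRNA, EBF3 fused to the part of the human glucocorticoid receptor that binds hormone, after 4.5 hours in 30 μM dexamethasone (DEX). On the 4 DEX control arrays, Cy3 held RNA of caps with 0.4 ng of hGR mRNA, the receptor domain without EBF3, after the same DEX treatment. Cy5 held RNA of untreated caps with 1 ng of hGR-XEBF3 mRNA on all 8 arrays, so that both kinds of array share this condition. The 4 replicate experiments gave 1 array of each kind, the proteins were made from mRNA injected at the one-cell stage, and dyes were not swapped.

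Fox proteins bind DNA through the forkhead domain, a winged helix. Members of class A open closed chromatin in endoderm and floor plate, class D genes act in neural plate and neural crest, class F genes mark lateral plate and visceral mesoderm, and class I genes act in ectoderm and its ion-secreting cells. FoxH1 carries nodal and activin signals to DNA together with Smad proteins, FoxJ1 drives formation of motile cilia, FoxM1 acts in the cell cycle, and FoxO proteins are kept out of the nucleus by insulin signaling. EBF proteins are zinc-finger helix-loop-helix factors that promote neuronal differentiation.

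Values below are log2 ratios of Cy3 to Cy5 without centring, so a positive value is a higher signal in the DEX-treated caps. The median ratio of an array lay between -0.08 and 0.24. With active EBF3 the SD over all probes was 0.63 to 0.95, and on the DEX control arrays it was 0.49 to 0.54, and 58.6% to 65.1% of probes were well above background in Cy5. Replicates 1 and 2 were scanned at 10 μm with 1 spot per probe, and replicates 3 and 4 at 5 μm with 2 spots per probe. Signals in scanner units are therefore compared within an array or between the paired arrays of a replicate, and ranges over replicates only describe. A probe was called when limma gave a Benjamini-Hochberg adjusted p under 0.05 over all probes tested and the change was at least 2-fold. Errors are SDs over 4 arrays unless called SE. In these caps the cement gland marker *agr2* was lower with active EBF3 (-4.74 ± 1.23, adjusted p = 0.00453) and the muscle regulator *myod1* was higher (6.31 ± 0.73, adjusted p = 0.000630). Of 3 cement gland probes only *agr2* was called, and of 7 muscle probes 3 were called higher and 1, *ckm*, lower. In RNA from whole caps, fewer cells of a type and less RNA per cell cannot be told apart.

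With active EBF3, Fox genes changed in both directions. Of the 21 Fox probes other than *xfd-13*, 12 were called, 7 higher and 5 lower, where 5.87% of all 21357 probes tested were called, 3.03% higher and 2.84% lower. The 7 were *foxa1*, *foxd2*, *foxd3*, *foxh1*, XFD2, XFD2' and *FoxO1*, and the 5 were *foxa4*, *foxb1*, *foxD5a*, *foxi1* and *FoxO3*. The median log2 ratio of the 21 was 0.38, against 0.08 over all probes, and the median absolute log2 ratio was 1.22, against 0.28. The methods name a t-test without saying whether it was paired. It was run here unpaired, on log2 signals of Cy3 against Cy5, with the same adjustment. Signal levels differ between the array designs and enter its spread, as for XFD2', with Cy3 of 2926, 5987, 273 and 298. By this test *foxa1*, *foxd2*, XFD2 and *foxi1* were called, where 1.28% of all probes were. The other 8 calls were lost, with adjusted p from 0.0606 for *foxd3* to 1.00 for *foxh1* and XFD2'. On the DEX control arrays none of the 22 Fox probes, *xfd-13* included, was called in either direction, where 0% of 21256 probes were called. There, 6 Fox probes had an unadjusted limma p under 0.05. The share of all probes with such a p was not taken, so this count does not set the Fox probes apart. None of the 6 reached 2-fold, where 121 of 21256 probes had such a p and at least a 2-fold change. The methods' t-test also called no Fox probe. The plot of Fox probes on each array shows both sets of values.

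**Figure D1:**
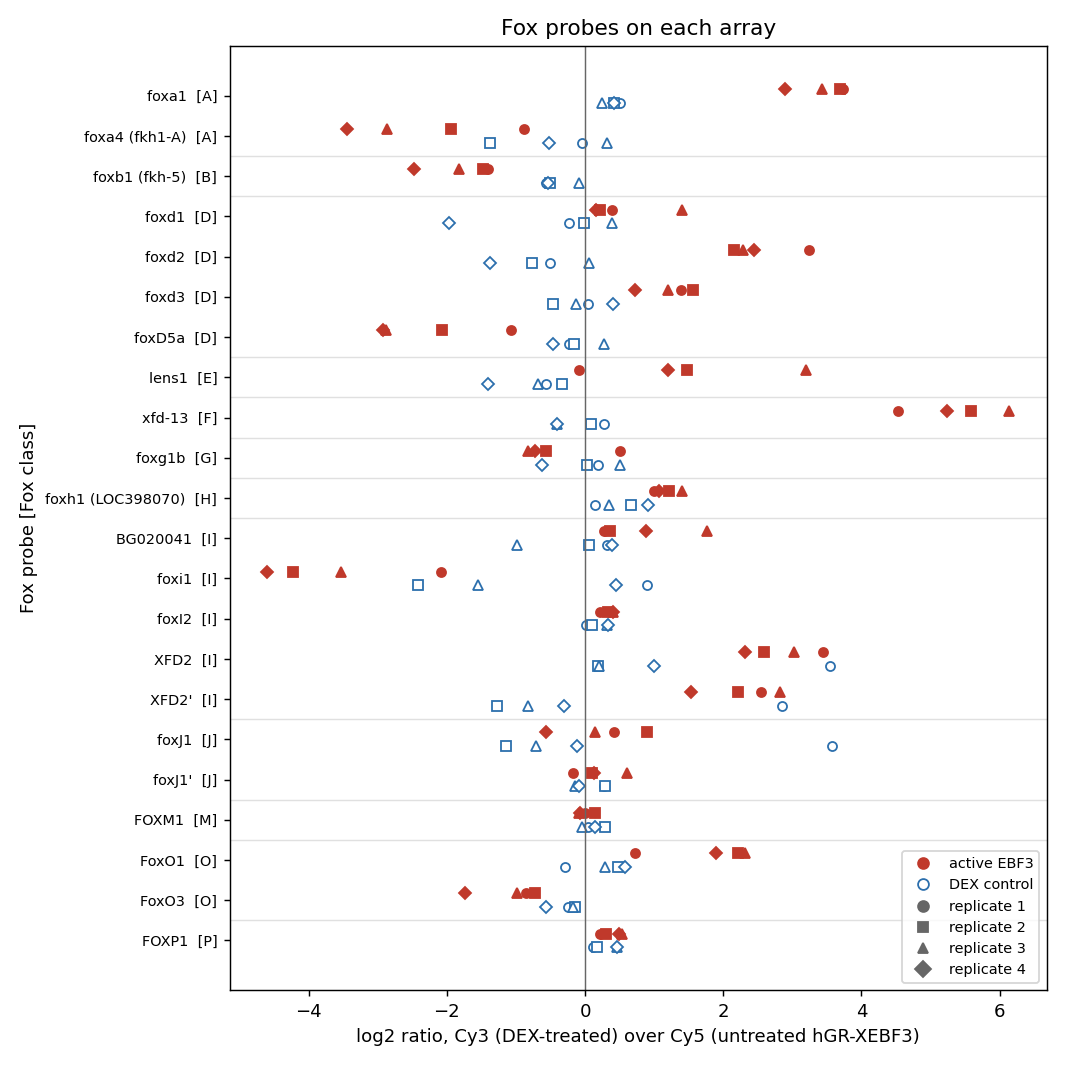
Log2 ratio of Cy3 to Cy5 (x axis) of the 22 Fox probes (y axis, Fox class in brackets) on each of the 4 active EBF3 arrays (filled) and 4 DEX control arrays (open), with 1 marker shape per replicate. The 4 active EBF3 points of *xfd-13* lie between 4.53 and 6.14 and its DEX control points between -0.41 and 0.28. DEX control replicate 1 (open circle) stands apart for XFD2, XFD2' and *foxJ1*.

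The single class F probe was that for *xfd-13*, a *foxf1* gene in RefSeq. Its Cy3 signal on the active EBF3 arrays was 16101, 21443, 21722 and 19370 in replicates 1 to 4, against Cy5 signals of 697, 448, 308 and 511. The log2 ratios were 4.53, 5.58, 6.14 and 5.24, a mean of 5.37 ± 0.67 or 41.5-fold, the rank 9 highest mean of all probes tested. On the DEX control arrays the ratios were 0.28, 0.09, -0.40 and -0.41 (-0.11 ± 0.35, adjusted p = 0.755). All 4 active EBF3 arrays were above all 4 DEX control arrays. The probe was selected for its high active EBF3 values, so neither this nor the rank is a test. Both channels were well above background on all 8 arrays. The difference between the groups was 5.48. The mean was 5.06 over replicates 1 and 2 and 5.69 over replicates 3 and 4.

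The untreated Cy5 signal of *xfd-13* was not alike on the paired arrays of a replicate. It was 1.25, 2.49, 7.38 and 5.63 times as high on the active EBF3 array as on the DEX control array of replicates 1 to 4, where the median over all probes well above background was 1.03, 0.993, 1.46 and 1.40. For *foxa1*, whose Cy3 signal was also high, the ratios were 1.77, 2.48, 2.87 and 3.25, and for XFD2 they were 1.27, 1.97, 3.42 and 2.61. For *foxD5a*, which fell, they were 1.09, 1.02, 1.62 and 1.51, close to those of all probes. Unlike Cy5 signals were not confined to Fox probes. In replicate 3, Cy5 of *myod1* was 986 on the active EBF3 array and 59.3 on the DEX control array. The reason for the unlike Cy5 signals was not tested. Since Cy5 is the denominator, a higher Cy5 signal lowers the log2 ratio on that array. The plot of both dyes shows it for 4 probes.

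**Figure D2:**
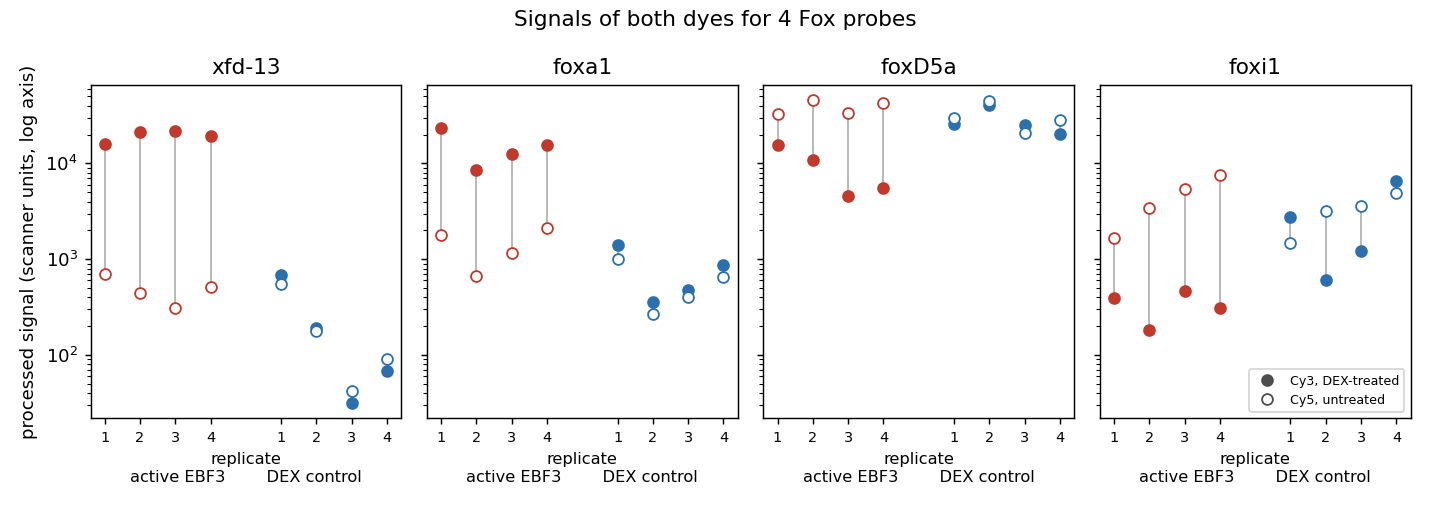
Processed signal in scanner units (log axis) of Cy3 (filled, DEX-treated caps) and Cy5 (open, untreated caps) for *xfd-13*, *foxa1*, *foxD5a* and *foxi1* on each array, by replicate (x axis), active EBF3 in red and DEX control in blue. A line joins the dyes of an array. Cy5 of *xfd-13* ranges from 308 to 697 with active EBF3 (red) and from 41.7 to 558 in the DEX control (blue).

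The class A probes moved in opposite directions. For *foxa1*, an endoderm and floor plate gene, the ratios with active EBF3 were 3.73, 3.69, 3.43 and 2.89 (3.44 ± 0.38, 10.8-fold, adjusted p = 0.000755). On the DEX control arrays they were 0.51, 0.42, 0.24 and 0.42, above 0 on 4 of 4 arrays but small (0.40 ± 0.11, adjusted p = 0.191). The groups were far apart, with a difference of 3.04 (SE 0.21, adjusted p = 0.000176), and the call held under every alternative run. For *foxa4* (fkh1-A), a gene of the organizer and the dorsal midline in *Xenopus*, the ratios with active EBF3 were -0.88, -1.94, -2.87 and -3.44 (-2.28 ± 1.12, adjusted p = 0.0316), and on the DEX control arrays -0.05, -1.37, 0.32 and -0.52 (-0.41 ± 0.73). The active array of replicate 1 lay within the range of the DEX control arrays, and the difference of -1.88 was not called (SE 0.57, adjusted p = 0.142). Its mean was -1.41 over replicates 1 and 2 and -3.16 over replicates 3 and 4. The call of *foxa4* was lost without replicate 2, 3 or 4 (adjusted p = 0.0991, 0.116 and 0.118) and with normexp background correction, where the mean was -0.95 (adjusted p = 0.0769).

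In class B, *foxb1* (fkh-5), a gene of the neural plate, was lower with active EBF3 on 4 of 4 arrays. Its ratios were -1.40, -1.48, -1.83 and -2.47 (-1.80 ± 0.49, 3.47-fold, adjusted p = 0.00851), against -0.57, -0.51, -0.09 and -0.53 on the DEX control arrays (-0.42 ± 0.23, adjusted p = 0.202). The groups did not overlap, and the difference of -1.37 was called (SE 0.26, adjusted p = 0.0181). Without replicate 2 or 3 this last call was lost (adjusted p = 0.0923 and 0.169).

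Class D had 4 probes, of which 2 rose, 1 fell and 1 was not called. For *foxd2* the ratios with active EBF3 were 3.24, 2.16, 2.29 and 2.44 (2.53 ± 0.49, 5.79-fold, adjusted p = 0.00277), and on the DEX control arrays -0.50, -0.77, 0.06 and -1.38 (-0.64 ± 0.60, adjusted p = 0.234). Its signal in untreated caps was low, and Cy5 was well above background on 3 of the 4 active EBF3 arrays, the exception being replicate 1, where the ratio was highest. On the DEX control arrays Cy3 was well above background on only 1 of 4. The control ratios and the difference thus also rest on dim signals. The difference was 3.18 (SE 0.34, adjusted p = 0.00120). The call of *foxd2* was kept in both comparisons under every alternative in which the probe could be tested, but its size was not. With normexp the mean was 1.42 (adjusted p = 0.0239) and the difference 1.60 (adjusted p = 0.00631), below the 2.91 of *foxa1* with the same correction.

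For *foxd3*, a factor of the neural crest, the ratios with active EBF3 were 1.39, 1.56, 1.20 and 0.72 (1.22 ± 0.36, 2.33-fold, adjusted p = 0.0144) and on the DEX control arrays 0.04, -0.46, -0.13 and 0.41 (-0.03 ± 0.36, adjusted p = 0.937). The groups did not overlap, with a difference of 1.25 (SE 0.25, adjusted p = 0.0230). This difference was not called with the replicate block (adjusted p = 0.0713), without replicate 1, 2 or 3 (adjusted p = 0.0991, 0.172 and 0.195) or without DEX control replicate 1 alone (adjusted p = 0.0582), and with normexp it was 0.90, below 2-fold. The call against untreated caps was lost without replicate 2 or 3 (adjusted p = 0.0756 and 0.0687) and with normexp, where the mean was 0.89, below 2-fold.

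For *foxD5a*, a gene of the early neural plate that RefSeq lists as *foxd4l1*, signals in untreated caps were the brightest among the Fox probes, with Cy5 between 20790 and 45849. Its ratios with active EBF3 were -1.07, -2.07, -2.88 and -2.93 (-2.24 ± 0.87, 4.72-fold, adjusted p = 0.0167), against -0.23, -0.16, 0.27 and -0.47 on the DEX control arrays (-0.15 ± 0.31, adjusted p = 0.634). Every active EBF3 array was below every DEX control array, and the difference of -2.09 was called (SE 0.41, adjusted p = 0.0223). Its mean against untreated caps was -1.57 over replicates 1 and 2 and -2.91 over replicates 3 and 4. Without replicate 2, 3 or 4 the call against untreated caps was lost (adjusted p = 0.0723, 0.0641 and 0.0968), as was the call of the difference (adjusted p = 0.158, 0.190 and 0.110), which was also lost without DEX control replicate 1 alone (adjusted p = 0.0563). The probe for *foxd1*, a forebrain gene, gave 0.54 ± 0.58 with active EBF3, from 0.16 to 1.41 (adjusted p = 0.223), and its groups overlapped.

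Class I had 5 probes, with *foxi1* and the XFD2 probes going opposite ways. For *foxi1*, an ectodermal gene, the ratios with active EBF3 were -2.08, -4.23, -3.53 and -4.60 (-3.61 ± 1.12, 12.2-fold, adjusted p = 0.00820), the lowest mean of any Fox probe. The DEX control arrays were themselves spread widely, at 0.89, -2.42, -1.55 and 0.45 (-0.66 ± 1.58, adjusted p = 0.569), so that replicates 2 and 3 were low without EBF3 as well. Within each replicate the active EBF3 array was the lower, but the groups overlapped, and the difference of -2.95 was not called (SE 0.82, adjusted p = 0.100). It was called with the replicate block (adjusted p = 0.0491) and among only the probes well above background (adjusted p = 0.0457). Without replicate 4 the call against untreated caps was lost (adjusted p = 0.0619), and with normexp the mean was -2.77 (adjusted p = 0.0432).

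The XFD2 probe gave ratios of 3.45, 2.59, 3.02 and 2.32 with active EBF3 (2.85 ± 0.50, 7.20-fold, adjusted p = 0.00206), and XFD2' gave 2.55, 2.21, 2.82 and 1.54 (2.28 ± 0.55, adjusted p = 0.00538). With normexp XFD2' kept this call at a mean below every one of these 4 ratios (adjusted p = 0.0142). On the DEX control arrays XFD2 gave 3.55, 0.19, 0.20 and 1.00 (1.23 ± 1.59, adjusted p = 0.313) and XFD2' gave 2.85, -1.28, -0.82 and -0.31 (0.11 ± 1.87, adjusted p = 0.951). For both probes, DEX control replicate 1 was as high as the active EBF3 arrays, whereas the other 3 DEX control arrays were below all of them. The differences, 1.61 for XFD2 (SE 0.71, adjusted p = 0.369) and 2.17 for XFD2' (SE 0.82, adjusted p = 0.266), were not called. Without that array alone, a setting chosen after seeing these values, both were called, at 2.38 (adjusted p = 0.00767) and 3.08 (adjusted p = 0.00333). They were also called without replicate 1 as a whole, at 2.18 (adjusted p = 0.0108) and 2.99 (adjusted p = 0.00822).

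In DEX control replicate 1 the high ratios came with high Cy3 signals and not with low Cy5 signals. Cy5 of XFD2' was 502 there and 500 on the active EBF3 array of the same replicate, while Cy3 was 3627 and 2926. The class J probe *foxJ1* followed the same array, at 3.58 there and -1.15, -0.71 and -0.12 on the other DEX control arrays, with Cy3 at 13344 and Cy5 at 1113. Its other probe, *foxJ1'*, did not follow it, at 0.27. Among the other class I probes, *foxi1* had its highest DEX control value there, 0.89, while *foxI2* was at 0.02 and BG020041 at 0.32.

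The genes *gata2* and *dlx5*, active in non-neural ectoderm among other tissues, were high on the same array, and were picked out after their values were seen. In the lists below, *gata2* is counted under blood and endothelium and *dlx5* under anterior neural genes. The probe for *gata2* (XGATA-2) gave 3.60 there and -2.44, -1.42 and -1.87 on DEX control replicates 2 to 4. The *dlx5* probe gave 1.29 there and -0.25, -0.25 and -0.18 on the others. The 5 multiciliated cell probes, among them the tektins *tekt3* and *tekt4*, had a median of -0.08 on that array, and the 2 ionocyte probes a median of 0.07. Of these, *enkur*, *myb* and the ionocyte gene *slc26a4.3* were not well above background in Cy5 on any array or in Cy3 with active EBF3. Of the 2 epidermis probes, *xepsin* gave 0.37 and *krt18* 0.14 there. The array as a whole held 140 probes at least 2-fold higher, fewer than the 486 to 606 of the other DEX control arrays. What set this array apart for these probes was not tested.

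**Figure D3:**
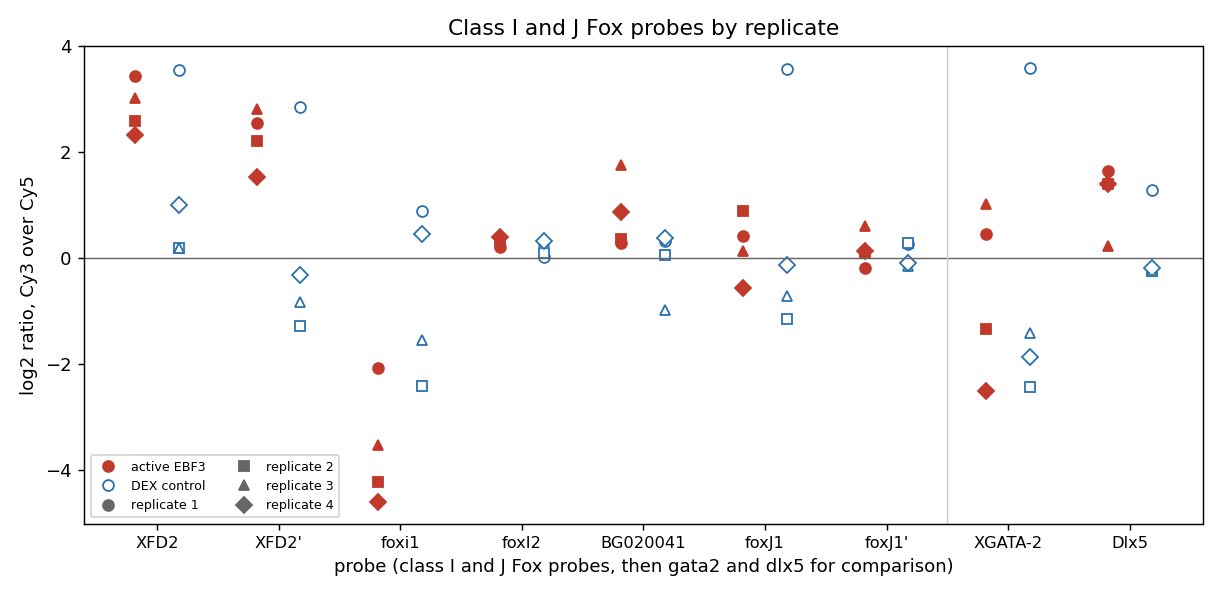
Log2 ratio of Cy3 to Cy5 (y axis) of the 5 class I and 2 class J Fox probes and, to the right of the line, of *gata2* and *dlx5* (x axis), on each active EBF3 array (filled) and DEX control array (open), with 1 marker shape per replicate. DEX control replicate 1 lies at 3.55 for XFD2, 2.85 for XFD2', 3.58 for *foxJ1* and 3.60 for *gata2*.

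Neither class J probe was called with active EBF3. There *foxJ1* gave 0.22 ± 0.61 (adjusted p = 0.591) and *foxJ1'* 0.17 ± 0.33 (adjusted p = 0.547). None of the 5 multiciliated cell probes was called in any comparison, where at most 5.87% of all probes were. Only *tekt4* and *ak7* of the 5 were well above background in Cy5 on all 8 arrays. In class I, *foxI2* was bright in every sample, with Cy5 between 3745 and 11317, and gave 0.34 ± 0.09 with active EBF3 and 0.19 ± 0.16 on the DEX control arrays. Its difference of 0.14 was within the spread (SE 0.14, adjusted p = 0.824). BG020041 was dim, and its 0.82 ± 0.68 was not called (adjusted p = 0.133).

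In class H, *foxh1* (LOC398070) gave ratios of 1.00, 1.22, 1.41 and 1.07 with active EBF3 (1.17 ± 0.18, 2.26-fold, adjusted p = 0.00788). Neither channel was well above background in replicates 1 and 2, where the call rests on dim signals. On the DEX control arrays it gave 0.14, 0.66, 0.35 and 0.91 (0.52 ± 0.34, adjusted p = 0.201), above 0 on 4 of 4 arrays. Although the groups did not overlap, the difference of 0.66 was not called (SE 0.20, adjusted p = 0.144). With normexp its mean fell below 2-fold (0.53, adjusted p = 0.138), and without replicate 2 the call was lost (adjusted p = 0.0536).

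The class O genes moved apart. The *FoxO1* ratios with active EBF3 were 0.72, 2.21, 2.32 and 1.90 (1.79 ± 0.73, 3.45-fold, adjusted p = 0.0211), against -0.29, 0.47, 0.29 and 0.58 on the DEX control arrays (0.26 ± 0.39, adjusted p = 0.451). Its Cy5 signal was well above background only in replicates 3 and 4. The groups did not overlap, and the difference of 1.52 was just outside the threshold (SE 0.37, adjusted p = 0.0567). The difference was called with the replicate block (adjusted p = 0.0164), with array design as a block (adjusted p = 0.0498), with median-centred arrays (adjusted p = 0.0242), in the authors' value table (adjusted p = 0.0302) and without replicate 1 (adjusted p = 0.00535). It was not called with normexp, with non-uniform spots kept, without replicate 2, 3 or 4, or without DEX control replicate 1 alone. Over these 11 alternatives it ranged from 0.68 to 1.70, with adjusted p up to 0.349. The call against untreated caps was lost without replicate 2, 3 or 4 (adjusted p = 0.0933, 0.0810 and 0.114) and with normexp, where the mean was 0.77 (adjusted p = 0.123).

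For *FoxO3* the ratios with active EBF3 were -0.85, -0.72, -0.98 and -1.73 (-1.07 ± 0.45, 2.10-fold, adjusted p = 0.0332), and on the DEX control arrays -0.24, -0.15, -0.17 and -0.56 (-0.28 ± 0.19, adjusted p = 0.295). The mean was close to the 2-fold limit, and the call was lost without any one of replicates 1 to 4 (adjusted p = 0.0545, 0.0872, 0.118 and 0.0680) and with normexp (-0.94, adjusted p = 0.0642). The groups did not overlap, but the difference of -0.79 was below 2-fold (SE 0.24, adjusted p = 0.138). None of 8 probes for genes of insulin and FoxO signaling, among them *igf1r*, *insr*, *irs1* and *akt1*, was called with active EBF3. With 5.87% of all probes called, 0 of 8 does not set this list apart. Its median was 0.06, and in Cy5 *pck1* and *igfbp1* were well above background on 0 and 4 of 8 arrays. *akt1* passed the test but not the 2-fold limit (0.76 ± 0.04, adjusted p = 0.0186).

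The other classes held no call. In class E, the lens gene *lens1* (*foxe3* in RefSeq) gave -0.09, 1.47, 3.20 and 1.20 with active EBF3 (1.44 ± 1.35, adjusted p = 0.147) and -0.34 to -1.40 on the DEX control arrays (-0.75 ± 0.45, adjusted p = 0.181). The groups did not overlap, yet Cy5 was well above background on only 2 of 8 arrays, and the difference of 2.19 was not called (SE 0.61, adjusted p = 0.101) except without replicate 1 (2.76, adjusted p = 0.0439). Another class E gene, *foxe1* in RefSeq, was on the array as LOC496399 and was not found by the naming rule. It gave -1.53 ± 1.36 with active EBF3 (adjusted p = 0.131). In class G, the forebrain gene *foxg1b* gave -0.40 ± 0.61, with replicate 1 at 0.50 and the others between -0.82 and -0.56 (adjusted p = 0.346). The cell cycle gene *FOXM1* had ratios from -0.09 to 0.15 with active EBF3 (0.00 ± 0.11) and a difference of -0.11 from the DEX control (SE 0.14, adjusted p = 0.877). *FOXP1* gave 0.38 ± 0.15 and 0.31 ± 0.18 in the active EBF3 and DEX control arrays, with a difference of 0.08 (SE 0.16, adjusted p = 0.922).

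The comparison of active EBF3 arrays with DEX control arrays, fitted over all 8 arrays, is a difference of Cy3 to Cy5 ratios. It sets DEX-treated caps carrying the EBF3 fusion against those carrying the receptor domain alone only where Cy5 is alike on both kinds of array. For *xfd-13*, *foxa1* and XFD2 the Cy5 signal was higher on the active EBF3 arrays, relative to all probes, as given above. Of the 21 tested Fox probes, 5 were called, 3 higher (*foxa1*, *foxd2* and *foxd3*) and 2 lower (*foxb1* and *foxD5a*), where 3.86% of all 21197 probes were called, 2.42% higher and 1.44% lower. The median difference was 0.14, against -0.08 over all probes, and the median absolute difference was 1.25, against 0.21. Thus 5 of the 12 Fox probes called against untreated caps were called here as well and 7 were not. This fit did not pair the arrays of a replicate, although they correlated, and which probes were called depended on that. The ranges of the 4 active EBF3 and 4 DEX control arrays did not overlap for 6 of the 21 Fox probes in the higher direction and 3 in the lower, where 4.90% and 5.25% of all probes did so. With the replicate block, which pairs the arrays, 3 Fox probes were called higher and 3 lower, where 4.30% of all probes were called. There *foxd3* was no longer called, while *FoxO1* and *foxi1* were. Both comparisons use the untreated caps in Cy5, so that the values of one are not independent of the other.

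**Figure D4:**
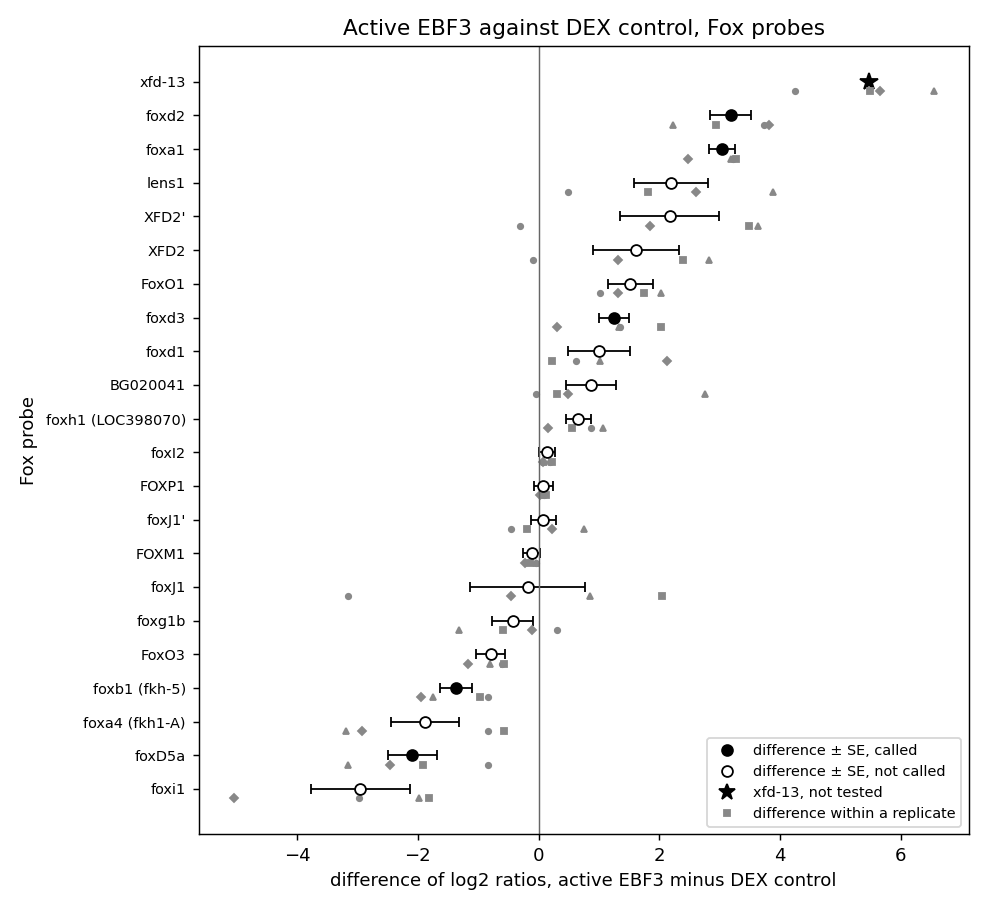
Difference of log2 ratios, active EBF3 minus DEX control (x axis), of the 22 Fox probes (y axis, ordered by the difference). Circles are limma differences with SE over 8 arrays (filled where called), the star is the untested *xfd-13* at 5.48, and grey markers are the differences within each of the 4 replicates (circle, square, triangle and diamond for 1 to 4). Within replicate 1, XFD2 is at -0.09 and XFD2' at -0.30, while their other replicates lie above 0.

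Genes of the tissues in which these Fox classes act were read from lists for context, as counts of probes called with active EBF3. Over all probes tested, 3.03% were called higher and 2.84% lower there. In the difference from the DEX control the shares were 2.42% and 1.44%. Of 10 endoderm probes 3 rose, *hhex* (5.39 ± 0.42, adjusted p = 0.000448), *mix1* (3.49 ± 1.01, adjusted p = 0.00710) and *gata5* (2.71 ± 0.38, adjusted p = 0.00143), while *sox17a*, the endoderm determinant, was at -2.62 ± 1.63 (adjusted p = 0.0576). The paper names *hex*, together with *lmo2*, as a gene with a part in leukocyte development, so *hhex* is not a marker of endoderm alone. Another probe that RefSeq matches to *mix1*, mix.2-A, lay in the other direction and was not called (-0.76 ± 0.40, adjusted p = 0.0675). In Cy5, mix.2-A stood well above background in all 8 arrays, but the called *mix1* probe in only 5. Of 10 visceral and lateral plate mesoderm probes, the neighbors in function of *xfd-13*, 1 rose and 1 fell. *hand2* was at 2.06 ± 0.85 (adjusted p = 0.0197), although its difference from the DEX control was 1.01 (adjusted p = 0.323). *bmp7* was at -2.44 ± 1.27 (adjusted p = 0.0364), with a difference of -2.37 (adjusted p = 0.0797). The heart and muscle layer genes *tbx20* and *nkx2-5* were dim in untreated caps, with Cy5 well above background on 0 and 1 of 8 arrays. The same held for *meox2*, *tagln* and *wt1*, on 1, 0 and 0 of 8. A fall of these genes could thus not be read. With active EBF3, Cy3 of *tbx20*, *meox2* and *tagln* was well above background on 0 arrays. For *nkx2-5* and *wt1* it was so on 1 array each. A rise to a clear Cy3 signal was thus seen on at most 1 active EBF3 array per gene. No probe of this list was called in the difference from the DEX control, while all 3 endoderm calls were. Dim probes limit the mesoderm count. The list medians were 0.29 and 0.37, against 0.08 over all probes.

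In both neural lists more probes fell than rose. Of 12 neural precursor probes 7 fell, among them *irx2* at -2.51 ± 0.65 (adjusted p = 0.00612) and *irx3* at -2.49 ± 0.48 (adjusted p = 0.00286), and 1 rose, LOC397804. RefSeq names it *nrp1*, the receptor neuropilin, which also serves axons and vessels, at 3.68 ± 0.66 (adjusted p = 0.00188). Its Cy5 was well above background on 3 of 8 arrays, 2 of them with active EBF3, so this ratio has a dim denominator. In the difference from the DEX control 4 of 11 were called lower, without *irx1*, *sox2* and *NCAM*, the last of which was at -1.51 with active EBF3 and -1.32 in the DEX control. Of 8 anterior neural probes 5 fell, led by *hesx1* (anf2-A) at -4.99 ± 1.12 (adjusted p = 0.00291), and *emx1* rose to 3.99 ± 0.42 (adjusted p = 0.000630). In the difference 4 of the 8 were called lower. The list medians were -1.33 and -2.97. Of 10 neural crest probes, the company of *foxd3*, 2 rose, *sox8* at 4.22 ± 1.42 (adjusted p = 0.00993) and *myc* at 1.02 ± 0.43 (adjusted p = 0.0345), and the list median was 0.23. The difference of *myc* from the DEX control was not called (0.85, adjusted p = 0.108). The crest genes *snai1*, at -1.05 (adjusted p = 0.115), *sox9*, at -0.99 and -0.85 on its 2 probes (adjusted p = 0.0640 and 0.0951), and *sox10*, at -0.24 ± 0.20 (adjusted p = 0.318), did not pass the test. Neither did *tfap2a*, at -0.46 (adjusted p = 0.114). The rest of the list lay above 0 and did not pass either. These were *snai2* at 0.93 ± 1.72 (adjusted p = 0.381), *msx2* at 0.89 (adjusted p = 0.178) and *ets1* at 0.69 (adjusted p = 0.167). Of 5 dorsal midline probes 2 rose, *not* at 3.77 ± 0.52 (adjusted p = 0.00103) and *lhx1* at 2.98 ± 0.44 (adjusted p = 0.00143), whereas *shh* was well above background in Cy3 on none of the active EBF3 arrays (-0.76 ± 0.86, adjusted p = 0.216). Genes of these lists that were not called are named after their values were seen. No probe of any of the 13 lists was called on the DEX control arrays.

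Markers of other cell types were also called. Of 7 muscle probes 3 rose, *myod1*, *tnnc1* (3.13 ± 0.86, adjusted p = 0.00642) and *myf5* (2.69 ± 0.39, adjusted p = 0.00149), and *ckm*, the muscle creatine kinase, fell (-2.11 ± 0.48, adjusted p = 0.00491). On the DEX control arrays *ckm* was at -1.02, and its difference of -1.09 was not called (adjusted p = 0.178). Of 4 blood and endothelium probes 2 rose, *tal1* (6.39 ± 0.66, adjusted p = 0.000534) and *lmo2* (5.60 ± 0.72, adjusted p = 0.000707). For *tal1* Cy5 was well above background on 2 of the 4 active EBF3 arrays and on none of the DEX control arrays, so its ratio has a dim denominator. Of 3 cement gland probes *agr2* fell, and of 2 epidermis probes *xepsin* fell (-2.53 ± 0.73, adjusted p = 0.00789). The median of the muscle list was 0.27, 1.80, 2.16 and 2.13 on the active EBF3 arrays of replicates 1 to 4 and -0.44 to 0.03 on the DEX control arrays. That of the blood and endothelium list ranged from 2.57 to 4.23 with active EBF3 and from -0.04 to 0.25 in the DEX control. With active EBF3 it lies between *tal1* and *lmo2* and the list's uncalled probes, so it describes none of the 4. These were *gata2* (-0.59 ± 1.62, adjusted p = 0.548) and *fli1* (0.73 ± 1.61, adjusted p = 0.461), the latter well above background in Cy5 on 0 of 8 arrays. The part of such cells in the Fox values was not tested.

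**Figure D5:**
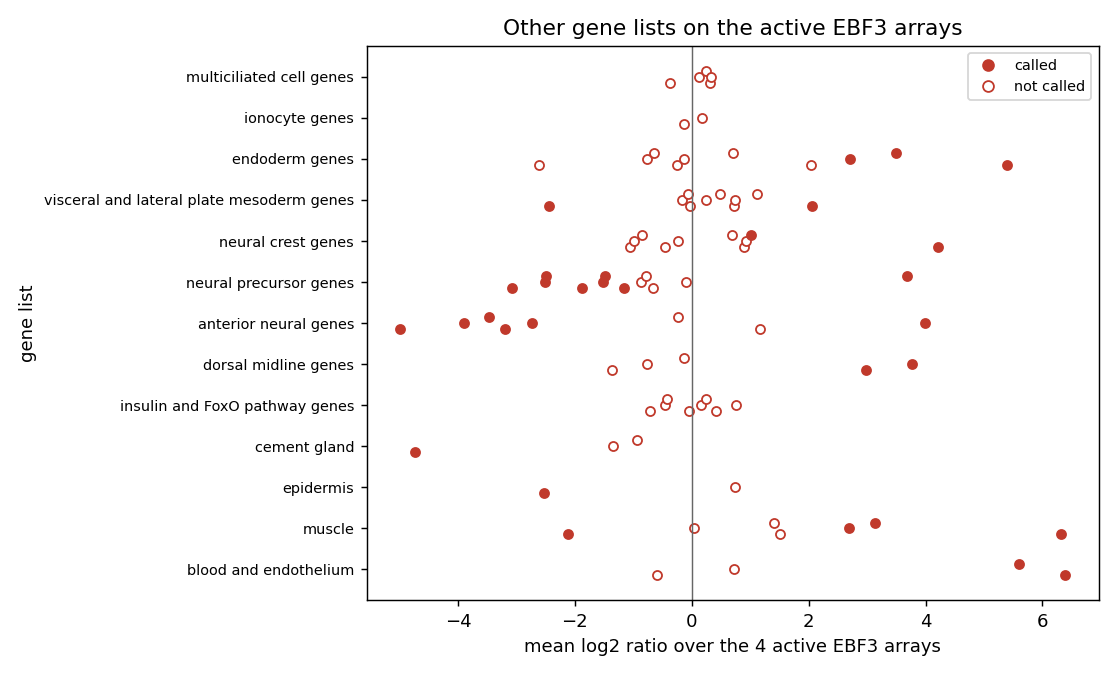
Mean log2 ratio of Cy3 to Cy5 over the 4 active EBF3 arrays (x axis) of each probe in 13 gene lists (y axis), filled where called with active EBF3 and open where not. Most called anterior neural and neural precursor probes lie to the left of 0. The multiciliated cell and insulin and FoxO pathway lists hold no call, where 5.87% of all probes were called.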

How the data were processed

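The authors hybridized labeled cRNA to 8 two-color Agilent arrays. The deposited scanner output holds intensity values, for which Feature Extraction (version 8.1.1.1 in replicate 1 and 9.1.3.1 in the others, per the file headers) had subtracted background and applied LOWESS between dyes. The authors' value table holds log10 ratios of Cy3 to Cy5. From the processed intensities, log2 ratios were computed in R 4.3.3, without control spots or spots marked non-uniform, and averaged per probe without centring. Dim spots hold a surrogate value.

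limma 3.58.1 (two-sided, Benjamini-Hochberg) tested each group against 0 and the groups against each other, the latter without pairing. In simulated data the comparison against untreated caps recovered 129 of 150 probes changed at least 4-fold and 13 of 50 changed 2-fold, among the 21197 probes simulated. The latter were set exactly at the 2-fold limit of a call, so estimates below it could not be called whatever their p. After subtraction of group means, arrays of one replicate number correlated (0.591, 0.493, 0.366 and 0.574, against at most 0.0483 otherwise), so numbers pair the arrays, as the methods' 4 biological replicate experiments imply. The values on every array are given for *xfd-13* and each Fox probe called in any comparison, and other Fox probes by range; at most 4 called probes with the largest mean are named per context list, and a result that this rule would name is not reported here. Members and lists were chosen with earlier results of these data known. Alternatives were normexp (offset 50) with loess, median centring, non-uniform spots kept, dim probes left out, the authors' value table, the methods' t-test, no fold limit, each replicate left out, and replicate or array design as a block. Precision is limited by having 4 arrays in a group and, where a probe was dim, by its signal over background.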

Additional observations from a re-analysis of the deposited data

Results flagged for a closer look

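In 1 of the 44 groups of 4 arrays tested over the Fox probes, 1 array stood apart from the other 3 by Dixon's criterion, and chance alone would flag about 1 group in 20. It was *foxb1* (fkh-5) on DEX control replicate 3, at a log2 ratio of -0.09, with the nearest other array at -0.51 (gap over range 0.875). XFD2, XFD2' and *foxJ1* on DEX control replicate 1 were not past this criterion.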

How the results depend on the processing

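With active EBF3 against untreated caps, 7 Fox probes were called higher and 5 lower, where 5.87% of all probes were called. With normexp and loess the counts were 4 and 3, where 2.88% of all probes were called. With the methods' t-test, run unpaired, they were 3 and 1, where 1.28% were. Leaving out a replicate gave 4 to 7 higher and 1 to 4 lower, with 2.22% to 6.91% over all probes. In the difference from the DEX control, 3 were called higher and 2 lower, where 3.86% of all probes were called. Leaving out a replicate there gave 2 to 6 and 0 to 2, with 1.71% to 3.69% over all probes. Without DEX control replicate 1 alone, chosen after seeing the data, 4 were higher and 1 lower (2.95% of all probes). The cause was not tested, beyond the smaller number of arrays where one was left out. No Fox probe was called on the DEX control arrays under any alternative tested, and no called value changed sign. With the replicate block 3 were higher and 3 lower, where 4.30% of all probes were called. The block removed the call of *foxd3* and added those of *foxi1* and *FoxO1*, and changed no other call. Over the 22 single Fox probes, 746 values under alternatives kept their call status or, where not tested, stayed within the spread. A further 42 lost the call, 12 gained one and 17 values without a test moved by more than the spread. A kept status does not mean a kept size or, for a value not called, a kept sign. The mean of *xfd-13* lay between 4.80 and 5.69 over the alternatives, and its difference between 4.87 and 6.10. Values within one array design, from 2 replicates, were taken without a test. Dim signals limit *foxd2*, *lens1*, *foxh1*, *FoxO1* and BG020041.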

Other observations

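Over all probes called higher with active EBF3, the Cy5 signal on the active EBF3 array was 1.09 to 1.66 times that on the DEX control array of the same replicate, in median. For probes called lower the values in replicates 1 to 4 were 1.05, 0.972, 1.44 and 1.39, and for all probes well above background 1.03, 0.993, 1.46 and 1.40. *xfd-13*, *foxa1* and XFD2 lay above these in every replicate. XFD2' did not, at 0.996, 0.961, 1.43 and 1.34, although it matches the same RefSeq gene as XFD2. A higher Cy5 signal was not confined to Fox probes, as *myod1* shows, a gene picked after its values were seen. Its Cy5 signal was 1614, 1544, 986 and 2866 on the active EBF3 arrays of replicates 1 to 4. On the DEX control arrays it was 144, 95.0, 59.3 and 87.8.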
